A study of Mus musculus with 4 samples.

Results

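The S100 genes on mouse chromosome 3 form a tandem family, and 7 of them were examined here: S100a1, S100a4, S100a5, S100a6, S100a8, S100a9 and S100a13, out of 21887 protein-coding genes. They were picked by name, with earlier results on S100a8 and S100a9 in these libraries known. On build mm10 they span 90511034 to 90695721, and with 50 kb on either side the interval holds 17 protein-coding genes, of which 12 are S100 genes. Accessibility came from ATAC-seq, in which a transposase cuts and tags open chromatin. The samples were MPP3 cells, multipotent blood progenitors that favour the granulocyte and monocyte lineages, sorted from the bone marrow of WT-iMOS mice 3 months of age. There were 4 libraries, 2 with the genotype label WTiMOS_T2 and 2 with WTiMOS_T1, and no label says what T2 and T1 stand for, which cells of the animals they mark, or whether replicates are separate animals. Peak names begin with MG in both T2 lists and with WG in both T1 lists, letters whose meaning is not given. If the replicates are not separate animals, the spread between replicates is technical. Each library is represented by the authors' peak list, so sequencing depth is unknown.

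S100 proteins are small calcium-binding proteins with paired EF-hand motifs. S100A8 and S100A9 join into calprotectin, which makes up much of the cytosolic protein of neutrophils, is also abundant in monocytes, and takes up zinc and manganese from its surroundings. Released calprotectin acts as an alarm signal through TLR4 and the receptor RAGE. The other members act mainly inside cells, and S100A4 and S100A6 are found in many motile or proliferating cell types.

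Peaks that shared at least 1 bp were joined across the libraries into regions, and the interval held 23 of the 77914 regions of the genome. A region is T2-only where both T2 libraries and neither T1 library had a peak, and T1-only in the opposite case. Of the 23 regions, 2 were T2-only, 3 were T1-only and 12 had a peak in all 4 libraries. Over the genome 6.88% of regions were T2-only and 2.33% were T1-only. The members were picked with these peaks known, so these counts are a description and nothing is read from them against the genome. The peaks in the interval numbered 19 and 17 in T2 replicates 1 and 2, and 17 and 17 in T1 replicates 1 and 2. The full lists held 66764 and 62704 peaks in T2, against 58454 and 54045 in T1.

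The 5 group-only regions lay in different stretches of the family. Both T2-only regions lay past the S100a6 end of the S100a4, S100a5 and S100a6 trio, and 2 of the 3 T1-only regions lay at S100a8 and between S100a8 and S100a9. The third T1-only region was in the body of S100a3. The map of the interval shows this order.

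**Figure D1:**
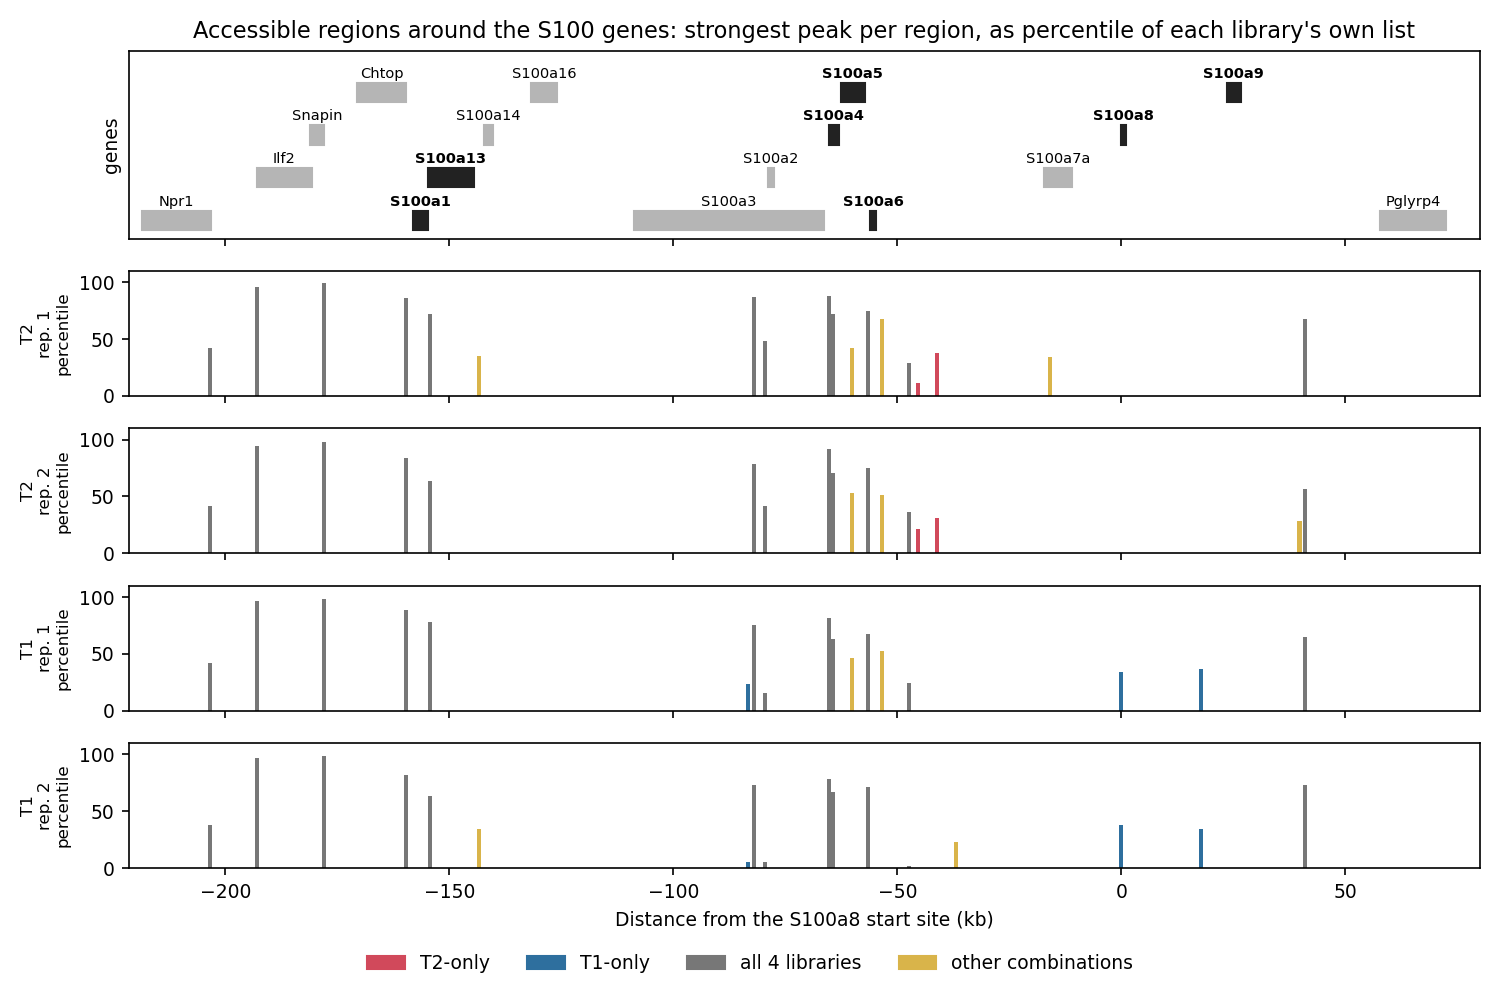
Top row: protein-coding genes of the interval by distance from the S100a8 start site in kb, members in black. Lower rows: 1 library each, with 1 bar per region of fixed width, whose height is the percentile of the region's strongest peak in that library's own list by −log10 q (100 is strongest). Red T2-only bars stand between S100a6 and S100a7a, and blue T1-only bars stand at S100a3, at S100a8 and between S100a8 and S100a9.

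The promoter windows of 4 members are printed because their start sites carry the contrast: S100a8 was T1-only, S100a9 had no peak, and S100a4 and S100a6 had a peak in all 4 libraries. Each runs 5′ to 3′ in the direction of its gene, from 250 bases before the start site to 50 after it (RefSeq, GRCm38.p6, the assembly that mm10 names). Capitals mark matches to the searched motifs, which are described after the sequences.
S100a8, chr3:90668821-90669120, plus strand: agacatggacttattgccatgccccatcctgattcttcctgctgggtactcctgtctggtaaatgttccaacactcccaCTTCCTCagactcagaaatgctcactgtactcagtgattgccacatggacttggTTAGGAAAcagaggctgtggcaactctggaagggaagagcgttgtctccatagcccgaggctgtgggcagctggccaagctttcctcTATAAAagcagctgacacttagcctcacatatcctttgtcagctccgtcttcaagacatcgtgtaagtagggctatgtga
S100a9, chr3:90695672-90695971, minus strand: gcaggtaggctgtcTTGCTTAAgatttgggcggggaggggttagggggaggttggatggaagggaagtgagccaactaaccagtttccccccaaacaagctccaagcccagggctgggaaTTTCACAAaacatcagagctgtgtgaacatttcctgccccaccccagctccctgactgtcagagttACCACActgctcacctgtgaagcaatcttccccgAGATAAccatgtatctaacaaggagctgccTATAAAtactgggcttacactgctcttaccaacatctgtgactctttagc
S100a4, chr3:90603520-90603819, plus strand: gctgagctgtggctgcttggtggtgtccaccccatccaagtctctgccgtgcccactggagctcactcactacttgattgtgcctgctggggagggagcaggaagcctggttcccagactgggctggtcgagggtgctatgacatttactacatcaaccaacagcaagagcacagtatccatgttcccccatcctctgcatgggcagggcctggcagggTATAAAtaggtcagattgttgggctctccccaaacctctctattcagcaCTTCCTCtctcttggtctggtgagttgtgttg
S100a6, chr3:90612644-90612943, plus strand: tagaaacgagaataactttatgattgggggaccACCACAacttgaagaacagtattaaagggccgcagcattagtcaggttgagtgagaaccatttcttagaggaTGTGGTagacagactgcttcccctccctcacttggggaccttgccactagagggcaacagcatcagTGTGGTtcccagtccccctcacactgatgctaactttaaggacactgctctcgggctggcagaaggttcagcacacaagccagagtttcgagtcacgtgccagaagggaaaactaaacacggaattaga

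Letters known to be bound by factors of blood cells were searched on both strands. C/EBP factors, which drive granulocyte genes, were searched as TTNCNNAA. For PU.1, a factor of myeloid and lymphoid cells, the letters were GAGGAAG. The RUNX search used TGTGGT, a core shared by that family. AP-1, which joins Fos and Jun proteins, was searched as TGANTCA. BCL11A, the factor the study is about, was searched as TGACCA. The GATA search, for factors of erythroid and mast cells among others, used AGATAA. The TATA box was searched as TATAAA on the strand of the gene only, and was added after the sequences were read. No match in a member overlapped another. The S100a8 window held 1 C/EBP match from −117 to −110, 1 PU.1 match from −171 to −165 and TATAAA from −30 to −25, counted from the start site. The S100a9 window held 2 C/EBP matches, 1 RUNX match, 1 GATA match and TATAAA from 1 to 6. S100a4 had 1 PU.1 match past the start site and TATAAA from −31 to −26, and S100a6 had 3 RUNX matches. No searched motif was found in the windows of S100a1, S100a5 or S100a13. Over all 32851 promoter windows of the table, 40.7% held the C/EBP letters, 13.6% the PU.1 letters, 16.8% the RUNX letters, 7.81% the AP-1 letters, 13.6% the BCL11A letters, 11.2% the GATA letters and 8.32% TATAAA. AP-1 and BCL11A letters were in 0 of the 7 member windows. A match is a description of the letters and does not show binding.

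S100a8 (90669071 to 90670034, plus strand) encodes the lighter calprotectin subunit and had a peak at its start site in both T1 libraries and in neither T2 library. The T1-only region spans 90668851 to 90669280 on chromosome 3, a width of 430 bp, and covers 270 of the 300 bases of the promoter window printed above. Its −log10 q, the authors' measure of a peak's significance over local background in its own library, was 14.5 in T1 replicate 1 and 14.7 in T1 replicate 2. The fold over background given by the authors was 8.50 and 8.96 in the T1 libraries. In own-list percentile, the share of a library's peaks with a −log10 q at or below this one, the region stood at 34.4 in T1 replicate 1 and 38.1 in T1 replicate 2. It was thus present in both T1 libraries at a strength below the middle of their lists. All T1-only regions of the genome had median percentiles of 25.7 and 21.6 in these libraries. The summits did not coincide, at 137 bp after the start site in T1 replicate 1 and 77 bp before it in T1 replicate 2. No peak was listed within 5 kb of S100a8 in T2 replicate 1 or T2 replicate 2. The deposited lists stop at a −log10 q of 2, so a missing peak means that none passed that level and not that the site was closed. In sorted cells measured in bulk, fewer cells with an open site and less opening in each cell cannot be told apart. Among 32851 promoter windows, 49 (0.149%) had a peak in both T1 libraries and neither T2 library, and 303 (0.922%) the opposite.

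**Figure D2:**
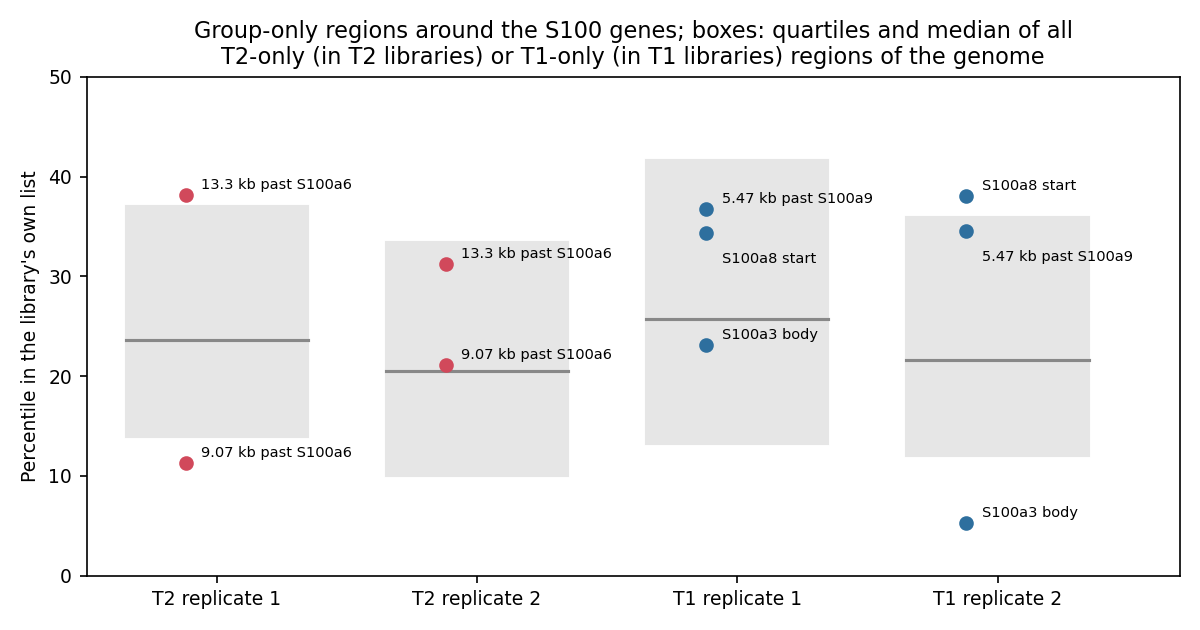
Own-list percentile (vertical axis, 100 is strongest) of the 5 group-only regions of the interval in the libraries that hold them. Grey boxes give the quartiles, with the median as a line, of all T2-only regions in the T2 libraries and of all T1-only regions in the T1 libraries. The S100a8 start and the region past S100a9 lie between 34.4 and 38.1 in both T1 libraries, above the genome's T1-only medians.

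S100a9, the heavier calprotectin subunit, had no peak at its start site in any of the 4 libraries, nor anywhere within 5 kb of the gene. Over the genome, 53% of promoter windows had no peak in any library, and 18.7% of 19922 named genes had none within 5 kb. S100a9 lies on the minus strand from 90692630 to 90695721, tail to tail with S100a8. The T1-only region assigned to it lies in the space between the genes, at 90686726 to 90687162, 5.47 kb past the S100a9 gene end and 16.7 kb past the end of S100a8. Its −log10 q was 15.5 and 13.2 and its fold 9.11 and 8.88 in T1 replicates 1 and 2. The own-list percentiles were 36.8 and 34.5, close to those of the S100a8 start site 17.4 kb away. Neither T2 library listed a peak there. The summits of the T1 libraries lay 45 bp apart. Upstream of S100a9, 14.2 kb before its start site, a region at 90709879 to 90710384 had a peak in all 4 libraries, with −log10 q of 41.5 and 26.2 in T2, against 36.5 and 42.6 in T1. Its percentile among the 44274 regions found in all 4 libraries was 51.8 and 39.96 in T2 and 53.7 and 67.6 in T1. Both T1 values were above both T2 values, but T2 replicate 1 and T1 replicate 1 differed by less than the replicates of either group. An adjacent region at 90708688 to 90708998 was listed in T2 replicate 2 alone (−log10 q of 11.9).

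**Figure D3:**
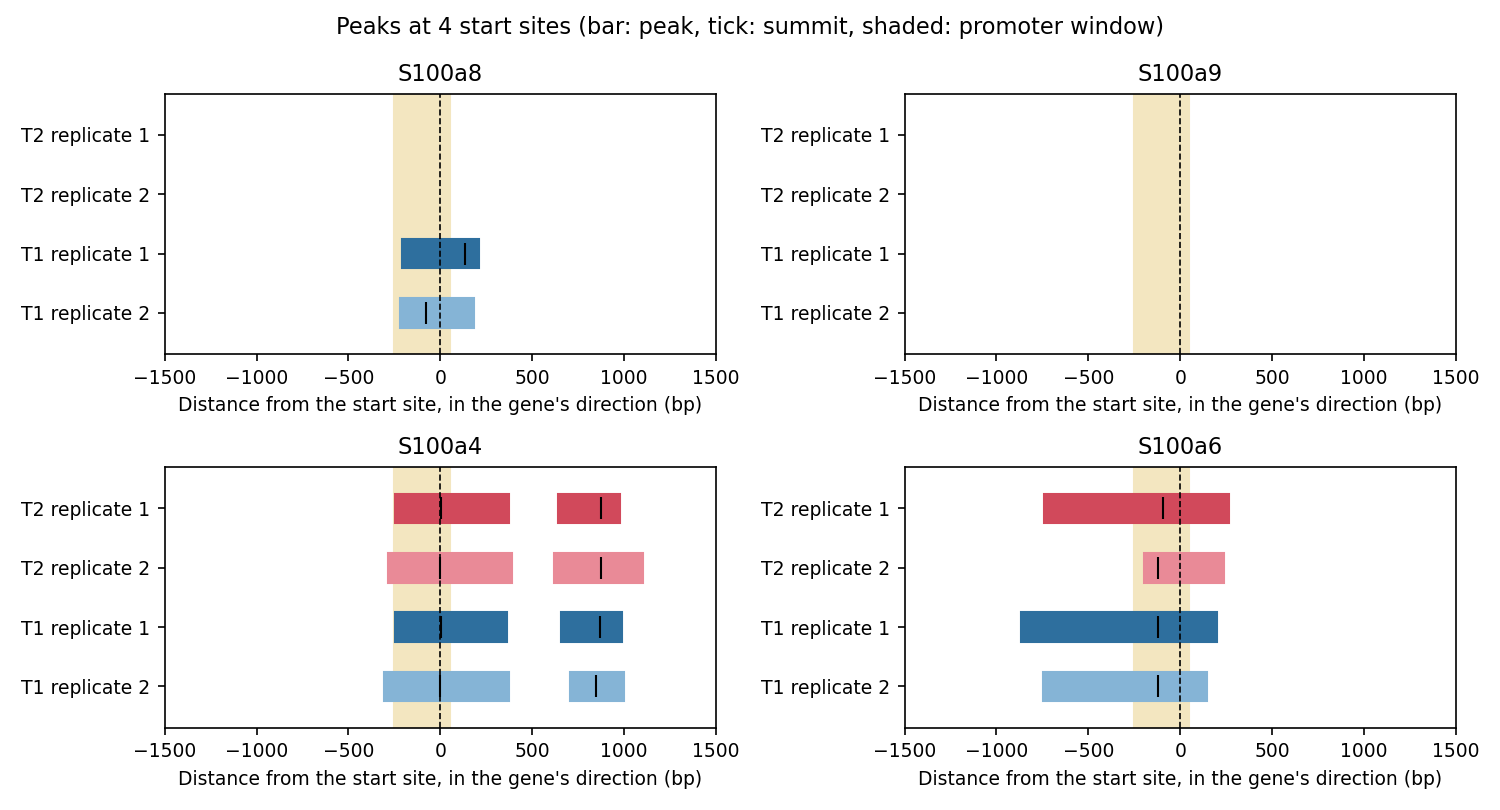
Peaks (bars) and their summits (ticks) by distance in bp from 4 start sites, in the direction of each gene, with T2 libraries above T1 libraries and the promoter window shaded. At S100a8 peaks are drawn for the T1 libraries and none for the T2 libraries, S100a9 has none in any library, and at S100a4 and S100a6 all 4 libraries have peaks whose summits nearly coincide.

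S100a4, which binds non-muscle myosin and is linked to cell motility, had the highest-ranking start site of the 7 members. Its start-site region, at 90603464 to 90604160, had −log10 q of 95.3 and 102 in T2 replicates 1 and 2, against 70.4 and 52.2 in T1 replicates 1 and 2. Its fold was 11.8 and 13.6 in T2, against 11.04 and 10.82 in T1. Among regions found in all 4 libraries it stood at percentiles of 81.1 and 88.0 in T2 and 75.4 and 73.9 in T1. The groups did not overlap, and the T2 mean was 9.86 percentile points above the T1 mean (pooled SD 3.51, n = 2 per group). Without T2 replicate 2 the difference was 6.20 points. Over the genome, 26.2% of such regions ranked higher in both T2 than in both T1 libraries and 26.2% the reverse, so a difference of this kind was common. The 4 summits fell between 3 bp before and 3 bp after the start site. A further region in the gene body, at 90604388 to 90604874, was at 58.5 and 58.2 in T2 and at 52.0 and 59.7 in T1, and the groups overlapped there.

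S100a6, calcyclin, had a start-site region in all 4 libraries between 90612027 and 90613161. There −log10 q was 54.5 and 48.3 in T2, against 40.6 and 39.5 in T1, and its percentiles were 62.5 and 64.9 in T2 and 57.6 and 65.2 in T1, which overlapped. The summits lay between −122 and −96 bp relative to the start site. S100a5, a member better known from olfactory neurons, had no peak in its promoter window in any library, a state shared by 53% of all promoter windows. A region inside the gene at 90608823 to 90609312, with summits 488 to 514 bp past the start site, had −log10 q of 19.3 and 24.1 in T2 and 20.6 in T1 replicate 1, and no peak in T1 replicate 2. T1 replicate 2 has the shortest of the 4 lists. A region 1028 bp past the end of S100a6, at 90615442 to 90615932, had the same combination, with −log10 q of 41.2 and 22.95 in T2 and 24.7 in T1 replicate 1.

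Past S100a6, in the direction of S100a8, lay a chain of weaker regions. The first, 7126 bp past the gene at 90621540 to 90621989, was in all 4 libraries, at percentiles of 10.5 and 19.3 in T2 and 11.3 and 0.608 in T1, with overlapping groups. The T2-only region at 90623484 to 90623850 had −log10 q of 6.88 and 9.40, or own-list percentiles of 11.3 and 21.2. The T2-only region at 90627755 to 90628113, 13.3 kb past S100a6 and 41.0 kb before the S100a8 start site, was stronger, with −log10 q of 17.2 and 12.7 and own-list percentiles of 38.2 and 31.2. Its summits in the T2 libraries lay 6 bp apart. All T2-only regions of the genome had median percentiles of 23.6 and 20.5. Within 15 kb of S100a4, S100a5 and S100a6, a distance chosen after the values were seen, both T2 libraries had a peak in each of 9 regions. Of these 9, 5 were in all 4 libraries, 2 were T2-only and 2 lacked a peak in T1 replicate 2 alone. Within 15 kb of S100a8 and S100a9 there were 4 regions, of which 2 were T1-only, 0 were T2-only and 1 was in all 4 libraries. The remaining region, 12967 bp from S100a9, was listed in T2 replicate 2 alone (−log10 q of 11.9) and breaks the pattern of this stretch. Genome shares were 6.88% T2-only and 2.33% T1-only. Other regions that break these patterns lay just outside 15 kb. One, 17699 bp past S100a6, was listed in T1 replicate 2 alone (−log10 q of 9.56). The T1-only region in S100a3 lay 17849 bp from S100a4. A region in S100a7a, 15739 bp from S100a8, was listed in T2 replicate 1 alone (−log10 q of 14.9).

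S100a1, a regulator of calcium handling in muscle, and S100a13, which takes part in the export of proteins that lack a signal peptide, start head to head with start sites 105 bp apart and share 1 region. It spans 90514157 to 90515333 and had −log10 q of 48.0 and 32.7 in T2, against 61.5 and 30.9 in T1. Its percentiles were 57.6 and 49.1 in T2 and 71.5 and 56.2 in T1. The groups overlapped, and the difference of −10.51 percentile points was close to the pooled SD of 8.73 (n = 2 per group). It was −2.82 points without T1 replicate 1, −6.05 without T2 replicate 2 and −16.70 without T1 replicate 2. A weak region 930 bp past S100a13, at 90525511 to 90525896, was listed in T2 replicate 1 and T1 replicate 2, with −log10 q of 15.5 and 13.2.

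CpG content varied among the member promoter windows, against a median of 7 CpG dinucleotides (quartiles 3 and 20) over all windows of the table. The windows of S100a4 and S100a6 held 2 and 6 CpG dinucleotides and were 55.3% and 49.3% G and C. Promoter windows with a peak in all 4 libraries, 41% of the table, held a median of 22 CpG with a lower quartile of 14, and were 62.0% G and C. The windows of S100a13 and S100a1, also with a peak in all 4 libraries, held 14 and 11. S100a8 and S100a9 held 4 and 2 CpG, and S100a5 held 3. The 49 T1-only promoter windows had a median of 6 CpG and 53.0% G and C.

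The remaining shared regions of the interval belonged to neighbouring genes. At Npr1, Ilf2, Snapin and Chtop, on the S100a1 side, T1 ranked higher or the groups overlapped within the interval. Over the genome 26.2% of shared regions ranked higher in both T1 libraries, so such a difference was common. Ilf2, an RNA-binding factor, stood at 94.1 and 91.6 in T2 and 95.2 and 95.8 in T1. Npr1, a natriuretic peptide receptor, stood at 20.7 and 24.3 in T2 and 27.1 and 27.6 in T1. At Snapin and Chtop the groups overlapped, with Snapin holding the strongest region of the interval at 98.9 and 96.7 in T2 and 98.02 and 98.5 in T1. In the body of S100a3, a gene expressed mainly in hair cuticle, 2 shared regions ranked higher in T2 and 1 region was T1-only. The region at 90589384 to 90589752 had the largest difference of the 12 shared regions, at percentiles of 27.0 and 24.2 in T2 and 5.95 and 2.13 in T1, or 21.60 points (pooled SD 2.37, n = 2 per group). Over all shared regions of the genome the 5th and the 95th percentiles of this difference were −18.93 and 18.46 points. Ranked by the fold in place of −log10 q, that difference was 7.18 points. The region at 90586686 to 90587512, over an S100a3 start site, was at 79.97 and 69.7 in T2 and 67.3 and 67.4 in T1. The T1-only region at 90585633 to 90585921, 764 bp from it, was weak, with −log10 q of 10.4 and 4.65.

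**Figure D4:**
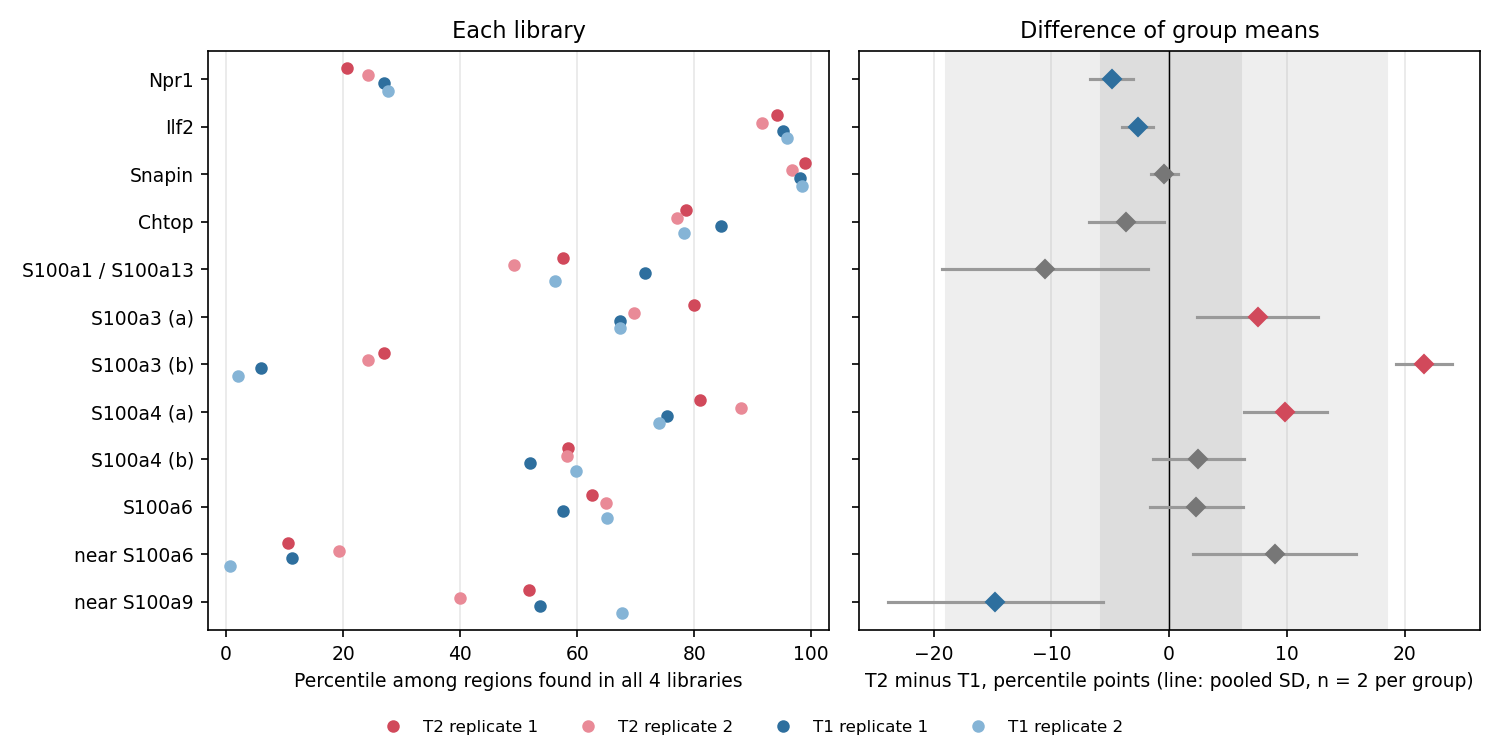
Left: percentile of each of the 12 regions found in all 4 libraries, 1 point per library, in genome order from top to bottom. Right: T2 minus T1 difference of the group means in percentile points with the pooled SD as a line, red where both T2 values exceed both T1 values, blue for the reverse and grey for overlap, over bands from the lower to the upper quartile and from the 5th to the 95th percentile of the 44274 shared regions of the genome. The 3 red points are at S100a3 and S100a4, and the 3 blue points at Npr1, Ilf2 and upstream of S100a9.

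Of the 12 shared regions, 3 ranked higher in both T2 libraries, 3 ranked higher in both T1 libraries and 6 overlapped. Genome shares were 26.2% in each direction, so these counts are near those of all shared regions. The mean percentile over the 12 was 60.1 and 58.6 in T2 and 58.3 and 57.8 in T1. With 2 libraries against 2 an exact two-sided permutation test gives no p below 0.333, so no difference between the groups could pass a threshold. The interval ended sharply on the calprotectin side. The last region inside it lay 35.3 kb from its edge, and the next region on the chromosome was 1370 kb away, at 92080549 to 92082924, where −log10 q was 17.3 and 16.6 in T2 and 16.99 and 15.2 in T1. On the S100a1 side the nearest region outside lay 13.6 kb beyond the edge, with −log10 q of 63.8 and 34.5 in T2 and 25.2 and 22.3 in T1, and the nearest inside was that of Npr1.

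Other named genes were compared with S100a8 by the own-list percentile of the best peak in the gene body plus 5 kb on either side, over the 4 libraries, with 0 where there was none. Of 19922 named genes, 199 (0.999%) had such peaks in both T2 libraries and neither T1 library, and 29 (0.146%) in both T1 libraries and neither T2 library. S100a8 was 1 of these 29. Of 1095 other genes with a T1-only region there, the nearest to S100a8 was Ifi209, an interferon-inducible gene, at 0 and 0 in T2 and 34.0 and 38.5 in T1. Serpinb1b, of a protease inhibitor family, followed at 43.2 and 38.3 in T1, and Lyz1, a lysozyme, at 38.5 and 44.2 in T1. Igip was at 34.0 and 27.7 in T1 and Ms4a4b at 36.9 and 28.1 in T1, and these 5 genes were all at 0 and 0 in T2. The measure favours such genes, since S100a8 itself is at 0 and 0 there. Of the 1095 genes, 25 had no T2 peak. Ifi209, Serpinb1b, Lyz1 and Ms4a4b have close relatives in the genome, and reads may be split among such copies.

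Genes that work with calprotectin or are switched on beside it were read against the genome shares of 6.88% T2-only and 2.33% T1-only regions. Regions were assigned to the gene whose body they overlap or else to the nearest gene within 50 kb. Among 19 regions of the 8 calprotectin receptor and signalling genes, 0 were T2-only and 1 (5.26%) was T1-only, at Cd36, a scavenger receptor, with −log10 q of 9.80 and 8.42. Tlr4 and Myd88, the receptor and its adaptor, had regions in all 4 libraries, and Ager, which encodes RAGE, had none. Among 65 regions of the 9 transcription factors of granulocyte-monocyte genes, 5 (7.69%) were T2-only and 1 (1.54%) was T1-only, both near the genome shares. Irf8 accounted for 3 T2-only regions and the T1-only one, Cebpe and Stat3 for 1 T2-only region each, and Cebpa, Cebpb and Spi1 for none. The 12 mature neutrophil genes had 1 T2-only region, at Retnlg, and 1 T1-only region, at Cxcr2, among 30, or 3.33% each. Of these genes 8 had regions. Ltf, which encodes the granule protein lactoferrin, had 3 in all 4 libraries, also at its promoter window, and a highest own-list percentile of 97.9 in any library. Of the 12 promoter windows of this list, only 1, that of Ltf, had a peak in all 4 libraries, and 8 had none in any. The shares over all promoter windows were 41% and 53%. Mmp9 and Mmp8, granule proteases, reached 86.9 and 81.7. Camp, Ngp, Lcn2 and Ly6g had no region. Among 12 regions of the 5 primary granule genes, 1 was T2-only and 1 T1-only (8.33% each), both at Mpo, the myeloperoxidase gene, whose promoter window was T2-only. Of the 5 promoter windows of these genes, 0 had a peak in all 4 libraries and 3 had none in any. In the members' own assignment the counts were 2 T2-only and 2 T1-only among 15, or 13.3% each.

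The lists for sorted and unwanted cell types were read beside these values and the genome shares of 6.88% T2-only and 2.33% T1-only regions. Of the 9 promoter windows of progenitor genes, 7 had a peak in all 4 libraries, including those of Kit, Cd34, Cd48, Flt3 and Meis1. Over all promoter windows this share was 41%. The Slamf1 window had a peak in some but not all libraries, 1 of 2 Mecom windows had none, and Ly6a had no window in the table. Among 15 regions of the 4 monocyte genes, 0 were T2-only and 2 (13.3%) were T1-only, at Ly6c2 (−log10 q of 17.9 and 14.9) and at Cx3cr1 (22.1 and 17.4). Both promoter windows of Ly6c2, a monocyte surface protein, were T1-only, as was that of S100a8, and the part of monocytes in the result at S100a8 was not tested. Ly6c2 has near-identical neighbours, so its value is uncertain. The other monocyte genes did not share its promoter class. Ccr2 had 3 regions, each in all 4 libraries, and no peak in its promoter window. Csf1r had 4 regions, of which 0 were T1-only, and the promoter window of Cx3cr1 had a peak in all 4 libraries. Of 109 regions of the progenitor list, 7 (6.42%) were T2-only and 0 were T1-only. The erythroid list (7 regions), the B lineage list (12) and the endothelial list (23) had 1 T2-only and 1 T1-only region each. The megakaryocyte list had 1 T2-only region among 8, and the stromal list 1 T1-only region among 16. The mast and basophil list (12 regions) and the T lineage list (6) had 0 of both. The neural and epithelial list had 4 T2-only regions among 17, or 23.5%, of which 3 were at Neurod1, and 0 T1-only regions. Most of these lists, that of monocyte genes included, hold few regions, so nothing is read from their group-only counts. The 13 genes of the epidermal differentiation complex, which borders the S100 genes on this chromosome, had 5 regions, 0 of them T2-only and 0 T1-only. Of their 13 promoter windows, 13 had no peak in any library, a state shared by 53% of all promoter windows.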

How the data were processed

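ATAC-seq peak lists of 4 MPP3 libraries (T2 and T1, 2 each) were used. The submitters' processing notes name Bowtie2, SAMtools, MACS2 and build mm10; for versions, settings, read filters and the transposase shift the answer is "not given in the sources used here". The authors deposited 1 list per library. In the column order of MACS2, the deposited fold is a ratio of summit to local background, and the deposited −log10 p and −log10 q measure significance over that background; the lowest −log10 q in the deposited lists was 2.00. No column is a read count, so depth is unknown and values rank peaks only within a list.

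Peaks outside chromosomes 1 to 19, X and Y were dropped, and those sharing 1 bp were joined. Percentiles were computed on −log10 q in each library's own list or among regions found in all 4 libraries. Genes and promoter windows came from RefSeq tables on GRCm38.p6. Missing promoter windows are not counted. The code was tested on simulated lists. Python 3.11.15, pandas 2.3.3, NumPy 2.4.6 and matplotlib 3.10.9 were used.

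The members, lists, motifs and comparisons were chosen with earlier results of these data known. The planned exact permutation tests are not given as results, since the members were chosen on this contrast and 2 against 2 libraries allow no p below 0.333. Genes named were the 7 members, every gene of the interval with a region, the 5 genes most like S100a8 (S100a9, with no peak within 5 kb, has no such genes), and up to 4 genes per list by number of group-only regions; other genes, TATAAA and the 15 kb stretches were picked after their values were seen. Alternatives were stricter peaks, equal list length, other overlaps, windows and rank measures, and leaving out each library.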

Additional observations from a re-analysis of the deposited data

How the results depend on the processing

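Leaving out a library or moving the window cannot end a group-only class, which leaves 6 settings that can. The T1-only regions at S100a8 and past S100a9 and the stronger T2-only region past S100a6 kept their class in 6 of these 6. Their −log10 q of 12.7 to 17.2 lay above every cutoff used, and their percentiles lay above the cut for equal list length. Those settings therefore could not end the class of these 3 regions, and keeping it there says little. The weaker T2-only region past S100a6 kept it in 4, being lost at a −log10 q of at least 10 and at equal list length (54045 peaks each), and the T1-only region in S100a3 kept it in 3. Equal list length left 1 T2-only region. T2-only regions numbered 2 to 4 and T1-only regions 3 to 4 when 1 library was left out, with 4 T2-only regions without T1 replicate 1, when the regions in and past S100a5 and S100a6 that T1 replicate 2 lacks joined that class. At a −log10 q of at least 10, the S100a3 region with the largest rank difference became T2-only. The mean rank difference of shared regions, 1.32 points (pooled SD 0.806), was 4.82 with 10 kb on either side, 2.49 with 100 kb, −0.13 ranked by fold, 6.11 by own-list percentile, and 0.751 (without T2 replicate 1) to 2.38 (without T2 replicate 2) when 1 library was left out. It was 0.882 without T1 replicate 2. Without T2 replicate 1 the region over an S100a3 start site fell to a difference of 2.32 points, against 7.50 with all libraries. The Npr1 region, −4.87 points, reversed to 2.004 by own-list percentile, where list lengths differ. No paired analysis was possible because the comparison rests on no test and no label ties equal replicate numbers to a shared animal, batch or day. Unknown depth limits every statement that a peak is missing.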

Other observations

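Of 5 S100 genes outside the family's main stretch, 4 had a region. Of their 14 regions, 2 (14.3%) were T2-only and 0 were T1-only, where the genome shares were 6.88% and 2.33%. With so few regions, nothing is read from these counts. S100a10, the annexin A2 partner, had 2 T2-only regions among 9, at 93550063 to 93550317 (−log10 q of 18.5 and 23.6 in the T2 libraries) and at 93607820 to 93608211 (15.1 and 12.1) on chromosome 3. S100a11 had 2 regions, both in all 4 libraries, and its promoter window was in all 4 as well. S100b and S100z had 1 region each in all 4 libraries, and S100g, an intestinal calcium carrier, had none.

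The 49 T1-only promoter windows, that of S100a8 among them, belonged to 47 gene symbols, of which 19 were unnamed Gm models. They held the C/EBP letters in 44.9%, against 40.7% of all windows, the PU.1 letters in 22.4%, against 13.6%, and the RUNX letters in 24.5%, against 16.8%. The AP-1 letters were in 8.16%, against 7.81%, those of BCL11A in 12.2%, against 13.6%, those of GATA in 8.16%, against 11.2%, and TATAAA in 4.08%, against 8.32%. None of these differences was tested.

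At the shared start of S100a1 and S100a13 the summit position followed the replicate number. It lay 434 and 70 bp past the S100a13 start site in T2 replicates 1 and 2, and 431 and 67 bp past it in T1 replicates 1 and 2. The region also ranked higher in replicate 1 than in replicate 2 of both groups. This did not hold across the interval. Over the S100a3 start site, T2 replicate 1 and T1 replicate 2 shared a summit at 90587109. The summits of T2 replicate 2 and T1 replicate 1 were at 90587049 and 90587047 there. The S100a4 start site ranked lower in T2 replicate 1 than in T2 replicate 2, at 81.1 against 88.0.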
